A study of Rattus norvegicus with 6 samples.

Results

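Acyl-CoA thioesterases were followed in rat left ventricle, with and without diabetes, as every probe set of the array whose annotation names Acot1, Acot2, Acot3, Acot4, Acot7, Acot8, Acot12 or Acot13, alone or with another gene. Probe sets were taken by annotation and not by their values, but the members were chosen with earlier results of these data known. It gave 9 probe sets out of 15866, which cover 7 of the 8 genes, and Acot3 is not analysed here because no probe set was annotated to it. The study compared 3 control rats, whose hearts are labelled normal, with 3 diabetic rats, each measured on 1 single-colour Affymetrix array of total RNA. No strain, sex, age, feeding state, cause or duration of diabetes is given for either group. Each array stands for a rat of its own by the design text, and the arrays are named here by group and number as in the labels. Signals are in the scaled units of the deposited table, which set the trimmed mean of every array (2% of values off either end) to 500.2.

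Acyl-CoA thioesterases split activated fatty acids into free fatty acid and coenzyme A. They oppose the acyl-CoA synthetases and set how much acyl-CoA and free coenzyme A each compartment holds. Acot1 to Acot6 form a family of close paralogs of the alpha/beta-hydrolase fold, of which Acot1 works in the cytosol, Acot2 in the mitochondrial matrix, and Acot3 and Acot4 in peroxisomes. Acot7, Acot12 and Acot13 belong to the unrelated hotdog-fold family, and the peroxisomal Acot8 shares that fold. Acot1 and Acot2 are classical targets of the fatty acid receptor PPAR-alpha, which is active in heart muscle.

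In the rat gene table (assembly GRCr8, used for names and neighbours only), Acot2, Acot1, Acot4, Acot3, Acot5 and Acot6 follow each other on chromosome 6. Between the outermost of these genes the table lists only Rpl23al8, a long noncoding RNA and the pseudogene Acot5-ps1. Acot7 lies on chromosome 5, Acot8 on 3, Acot12 on 2 and Acot13 on 17. Probe letters were not used here, so cross-hybridization among the chromosome 6 paralogs could not be measured. The probe set 1388211_s_at is annotated to both Acot2 and Acot1 and is called the shared probe set below.

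RefSeq promoter sequences (GRCr8) were matched by symbol for all 8 genes. The 250 bases before the annotated start are shown for Acot1, Acot2 and Acot4, neighbours whose signals were higher in every diabetic than in every normal array, and for Acot8, the member whose window held a receptor repeat. They lie at chr6:109367024-109367273 on the plus strand for Acot1, chr6:109342590-109342839 (plus) for Acot2, chr6:109399604-109399853 (plus) for Acot4 and chr3:173962189-173962438 (minus) for Acot8. Capitals mark every match on either strand to AGGTCA, the half-site of nuclear receptors, to GGTCANAGGTCA, a direct repeat of that half-site with 1 base between and its first letter dropped, or to the CCAAT box, CCAAT.
Acot1: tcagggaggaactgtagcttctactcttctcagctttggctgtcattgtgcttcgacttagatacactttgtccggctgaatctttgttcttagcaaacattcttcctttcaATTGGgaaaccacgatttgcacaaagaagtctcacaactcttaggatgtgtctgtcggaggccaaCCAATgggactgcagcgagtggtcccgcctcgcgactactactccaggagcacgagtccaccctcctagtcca
Acot2: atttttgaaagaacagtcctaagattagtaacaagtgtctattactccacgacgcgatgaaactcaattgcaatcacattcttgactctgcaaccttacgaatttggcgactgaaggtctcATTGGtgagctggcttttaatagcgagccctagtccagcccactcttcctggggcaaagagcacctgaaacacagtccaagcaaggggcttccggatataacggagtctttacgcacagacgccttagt
Acot4: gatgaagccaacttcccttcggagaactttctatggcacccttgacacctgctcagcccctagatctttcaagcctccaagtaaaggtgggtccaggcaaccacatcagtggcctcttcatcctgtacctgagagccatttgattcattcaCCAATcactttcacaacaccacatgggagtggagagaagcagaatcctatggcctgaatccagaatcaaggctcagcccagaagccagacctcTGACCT
Acot8: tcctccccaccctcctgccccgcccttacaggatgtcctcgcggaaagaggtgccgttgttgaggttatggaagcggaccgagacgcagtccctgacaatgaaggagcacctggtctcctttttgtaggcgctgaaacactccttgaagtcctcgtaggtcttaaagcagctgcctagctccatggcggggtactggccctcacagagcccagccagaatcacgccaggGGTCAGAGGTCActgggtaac
The Acot1 window held a CCAAT box on each strand, the Acot2 window held 1 on the minus strand, and the Acot4 window held 1 on the plus strand. A CCAAT box on either strand occurred in 34% of 33469 promoter windows of the same length. AGGTCA was found in the Acot4 window, where it forms the last 6 bases before the start, in the Acot8 window, where it is part of the repeat, and in that of Acot12, against 14.1% of all windows. The repeat GGTCANAGGTCA was found only in the Acot8 window among the family's 9 windows (Acot7 has 2 start sites), and in 0.0837% of all windows. The whole repeat AGGTCANAGGTCA was in none of the family's windows and in 0.0508% of all. A match describes letters and not a bound factor, and a missing match says only that these letters are not in this window.

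The 3 probe sets of Acot1 and Acot2 had several times more signal in the diabetic ventricles, and no other tested thioesterase probe set passed the threshold. On the log2(signal + 16) scale Acot1 differed most among the tested members, with a mean signal of 655 ± 382 against 44.8 ± 17.9, and Acot2 was at 1011 ± 199 against 275 ± 136 (SD, n = 3 per group). The single-gene probe set of Acot4 was higher in every diabetic array too but lay below the filter for dim signals. Acot7, Acot8 and Acot12 overlapped between the groups, and Acot13 was slightly lower in every diabetic array. Differences were tested with limma on log2(signal + 16), and a probe set counts as changed below 0.05 after Benjamini-Hochberg adjustment over the 9519 tested. The log2 scale with its added 16 understates the change of dim probe sets. Among all tested probe sets 2.88% changed, with 1.5% higher and 1.38% lower in diabetic hearts. Of the 9 thioesterase probe sets, 6 passed the dim filter and 3 of these rose. Acot1 passed that filter only through its diabetic arrays, since its normal signals lay below the level of 112.8 that the filter amounts to, so this count carries no weight of its own. Without any filter, groups did not overlap at 5 of the 9 probe sets, 4 of them higher and 1 lower in diabetic hearts. The same held for 19.8% of all 15866 probe sets, with 9.77% higher and 10% lower.

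**Figure D1:**
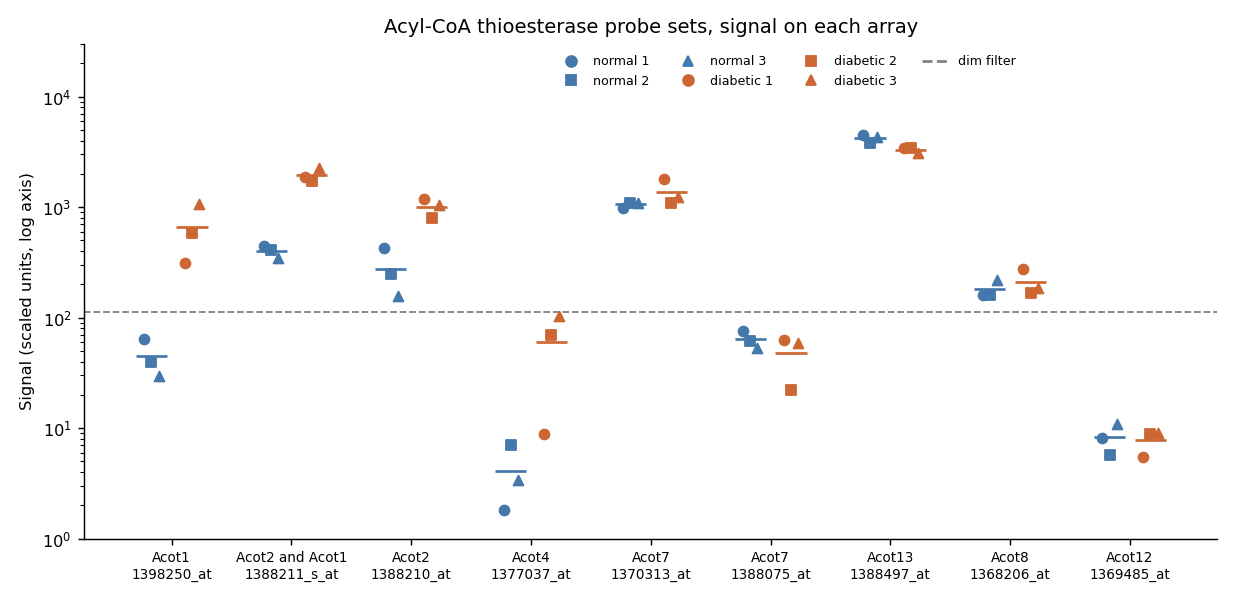
Signal of the 9 thioesterase probe sets on each array (scaled units, log axis), with normal arrays in blue, diabetic arrays in orange, a symbol for each array number and a bar at each group mean. The dashed line is the signal of 112.8 that corresponds to the dim filter; the Acot1 signals of normal arrays lie below it and those of diabetic arrays above it.

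Acot1, the cytosolic enzyme, is the only gene annotated to 1398250_at, though cross-hybridization with its paralogs could not be measured. Its signal was 64.6, 40 and 29.8 in normal 1, 2 and 3 and 313.8, 584.8 and 1067.4 in diabetic 1, 2 and 3. The groups lay far apart, with the lowest diabetic array 4.86-fold above the highest normal array. The diabetic arrays differed widely among themselves, diabetic 1 being lowest and diabetic 3 highest. The ratio of group means was 14.6, and the log2 difference was 3.34 ± 0.39 (SE; 95% interval 2.46 to 4.22; limma adjusted p = 0.00588). It was the second largest log2 rise among the tested probe sets, a set that Acot1 entered only through its diabetic arrays. Leaving out any 1 array kept the difference between 2.91 and 3.77. The adjusted p rests on a filter that Acot1 passed only through its diabetic arrays. Free of that filter its limma adjusted p was 0.066, short of the threshold and the highest over the alternatives, and 0.0037 with an intensity trend, an alternative added after seeing the data.

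The shared probe set of Acot2 and Acot1 gave the tightest groups of the 3. Its signal was 445.1, 413.5 and 343.0 in normal 1, 2 and 3 and 1885.1, 1731.7 and 2278.8 in diabetic 1, 2 and 3. Arrays within each group were close to each other, and the gap between groups was wide. The ratio of means was 4.91, with a log2 difference of 2.25 ± 0.17 (95% interval 1.87 to 2.63; limma adjusted p = 0.000937), the third smallest p among tested probe sets. With any 1 array left out it stayed between 2.14 and 2.33 and past the threshold, and it was the only thioesterase probe set past it without the dim filter (limma adjusted p = 0.0308), where 0.113% of the array passed.

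Acot2, the mitochondrial enzyme, is the only gene annotated to 1388210_at, with the same limit on cross-hybridization as for Acot1. Its signal was 422.7, 247.2 and 155.4 in normal 1, 2 and 3 and 1195.7, 799.9 and 1038.8 in diabetic 1, 2 and 3. The groups did not overlap, but the normal arrays were spread, normal 1 being highest and normal 3 lowest. The ratio of means was 3.68, with a log2 difference of 1.91 ± 0.31 (95% interval 1.20 to 2.61; limma adjusted p = 0.0172). The call ended without normal 2 (adjusted p = 0.0534), diabetic 1 (0.0585) or diabetic 3 (0.0618), and without the dim filter (0.117, the highest over the alternatives), while the difference stayed between 1.58 and 2.26 with any 1 array left out.

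**Figure D2:**
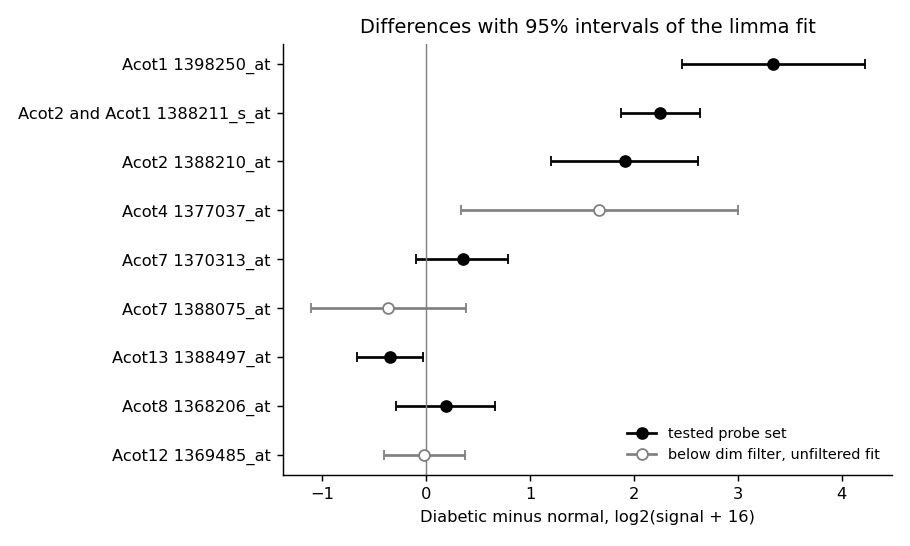
Difference between diabetic and normal hearts for each thioesterase probe set, in log2(signal + 16), with 95% intervals of the limma fit. Filled points are tested probe sets and open points are those below the dim filter, taken from the unfiltered fit; the intervals of the 3 Acot1 and Acot2 probe sets lie above 1.

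Acot1 and Acot2 signals were also set against each other within each array, to ask whether the difference between groups was unequal for the paralogs. The log2 difference of the Acot1 from the Acot2 probe set was -2.44, -2.23 and -1.90 in normal 1, 2 and 3 and -1.88, -0.44 and 0.04 in diabetic 1, 2 and 3. The groups did not overlap, but only narrowly, with diabetic 1 beside normal 3. Acot1 therefore differed between groups by 1.43 more than Acot2 on the log2 scale (normal -2.19 ± 0.27, diabetic -0.76 ± 1.00, SD, n = 3 per group; exact two-sided permutation p = 0.1, the smallest that 3 against 3 arrays allow). With a pseudocount of 64 this was 0.87 (exact permutation p = 0.3), with quantile normalization 1.42 (exact permutation p = 0.2), and without diabetic 1 it was 1.99. Against the shared probe set, Acot1 differed by 1.09 more (exact permutation p = 0.2). An unequal response of the paralogs could not be shown with 3 against 3 arrays.

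**Figure D3:**
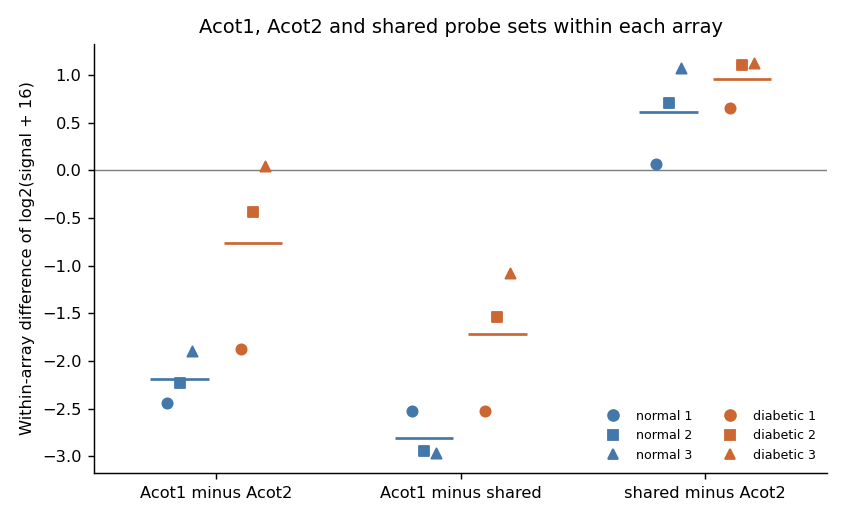
Within-array differences of log2(signal + 16) between the Acot1, Acot2 and shared probe sets, with normal arrays in blue, diabetic arrays in orange and a bar at each group mean (n = 3). For Acot1 minus Acot2, diabetic 2 and 3 lie well above the normal arrays and diabetic 1, at -1.88, lies next to normal 3.

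Acot4 encodes a peroxisomal enzyme of the same gene cluster. Its probe set, 1377037_at, read 1.8, 7.1 and 3.4 in normal 1, 2 and 3 and 8.9, 69.7 and 102.9 in diabetic 1, 2 and 3. Diabetic 2 and 3 stood well above the normal arrays, whereas diabetic 1 was just above normal 2. All 6 values were below the filter level, so the probe set was not among those tested. In the unfiltered limma fit its log2 difference was 1.66 ± 0.56 (95% interval 0.33 to 3.00; adjusted p = 0.307). Diabetic 1 was the lowest diabetic array and diabetic 3 the highest for Acot4, as for Acot1, and diabetic 1 was the highest for Acot2. Acot4 is a close paralog of Acot1, so its signal is uncertain, and cross-hybridization was not tested.

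Acot7 is a cytosolic long-chain acyl-CoA hydrolase best known from brain. Its brighter probe set, 1370313_at, read 983.4, 1101.4 and 1086.5 in normal 1, 2 and 3 and 1807.3, 1094.6 and 1239.3 in diabetic 1, 2 and 3. Only diabetic 1 stood clearly out, and diabetic 2 lay within the normal range. The log2 difference was 0.35 ± 0.20 (95% interval -0.10 to 0.79; limma adjusted p = 0.368), and 0.14 without diabetic 1. The other Acot7 probe set, 1388075_at, was dim in all arrays, from 53.6 to 75.6 in normal and from 22.1 to 63.3 in diabetic hearts. Its difference had the opposite sign, -0.37 ± 0.31 in the unfiltered fit (adjusted p = 0.684).

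Acot13, also called Them2, is a hotdog-fold enzyme found with mitochondria that binds the phosphatidylcholine transfer protein Pctp. It read 4520.4, 3845.0 and 4288.1 in normal 1, 2 and 3 and 3449.6, 3398.8 and 3073.0 in diabetic 1, 2 and 3. Every diabetic array was below every normal array, by a small margin. The log2 difference was -0.35 ± 0.14 (95% interval -0.67 to -0.03), which did not pass over the array (limma adjusted p = 0.216). It stayed between -0.41 and -0.30 with any 1 array left out. Its partner Pctp differed by -0.12 (limma adjusted p = 0.727).

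Acot8 is a peroxisomal thioesterase with a broad range of substrates. It read 159.5, 160.8 and 220.8 in normal 1, 2 and 3 and 273.2, 168.0 and 187.3 in diabetic 1, 2 and 3. The groups overlapped, with diabetic 1 again the highest array, as for Acot7. The log2 difference was 0.19 ± 0.21 (95% interval -0.29 to 0.66; limma adjusted p = 0.679), and -0.01 without diabetic 1. Acot12, a cytosolic acetyl-CoA hydrolase of liver, read from 5.7 to 10.9 in normal and from 5.5 to 9.1 in diabetic hearts, near the lowest signals on the array. For Acot7 and Acot8 the intervals reach 0.79 and 0.66, so rises up to that size on the log2 scale were within the error of these arrays.

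The profiles most like those of Acot1 and Acot2 were taken as the 5 genes outside the family with the smallest Euclidean distance over the 6 arrays, after centring each log2 profile on its mean. For Acot1 these were Nppa, the atrial natriuretic peptide precursor (distance 1.28), Bex1 (1.61), Pik3c2g, a class II phosphoinositide 3-kinase (1.78), Gpihbp1, which holds lipoprotein lipase on capillaries (2.08), and Cyp2e1, a cytochrome P450 (2.18). The shared probe set lay at 1.73 from Acot1, and Acot2 at 2.28, farther than all 5 of these. For Acot2 they were Sult1a1, a sulfotransferase (0.57), Gpihbp1 (0.66), Cbr1, a carbonyl reductase (0.67), Tgif1 (0.77) and Ndrg1 (0.84), and the shared probe set lay at 0.91. Gpihbp1 and Sult1a1 shared the spread of the Acot2 normal arrays, with 1790.8, 1442.7 and 618.3 for Gpihbp1 and 1601.7, 1160.8 and 499.7 for Sult1a1 in normal 1, 2 and 3. In all of them normal 3 was the lowest array, which the choice by closeness over all 6 arrays partly fixed in advance.

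**Figure D4:**
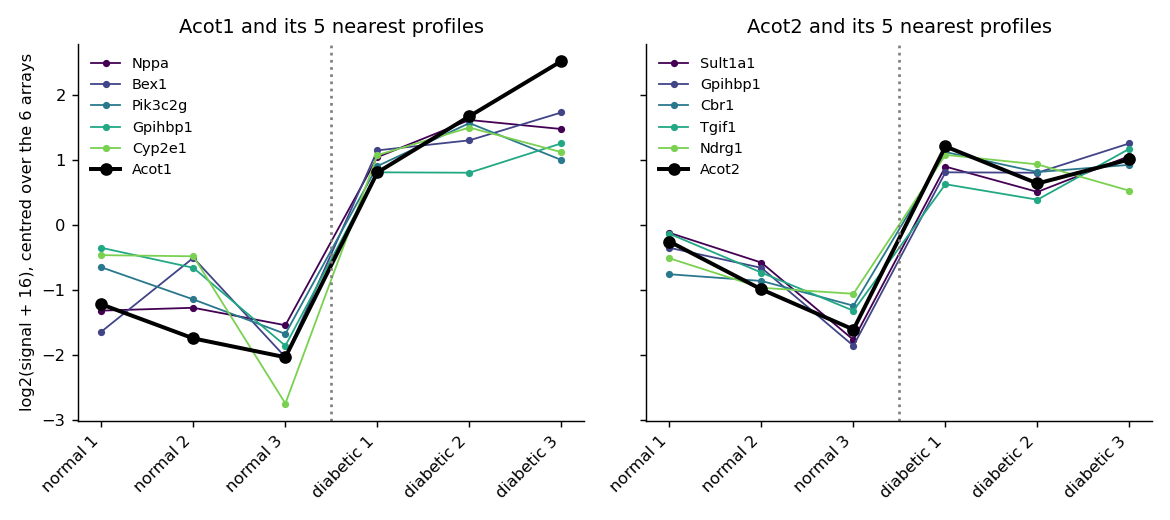
Profiles of Acot1 (left, black) and Acot2 (right, black) with the 5 nearest genes outside the family, as log2(signal + 16) centred over the 6 arrays. Lines only join the points of a gene, since arrays of a group have no order; normal 3 is the lowest array for Acot1 and for Acot2, and diabetic 3 is the highest for Acot1 but not for Acot2.

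Of 30 tested genes known to respond to PPAR-alpha, outside the family, normal 3 was the lowest normal array for 26 and the highest for 2, Vnn1 and Aldh3a2, against 34.5% lowest and 34.4% highest among all tested probe sets. Pdk4, the kinase that shuts pyruvate dehydrogenase, read 8462.3, 9237.4 and 1641.8 in normal 1, 2 and 3, and Angptl4, an inhibitor of lipoprotein lipase, read 927.2, 1083.3 and 72.7. In both, normal 3 was several-fold below the other normal arrays, and neither gene passed (limma adjusted p = 0.177 and 0.16). Without normal 3, the log2 difference moved from 1.5 to 0.69 for Pdk4 and from 2.30 to 1.12 for Angptl4, but only from 3.34 to 3.16 for Acot1 and from 1.91 to 1.58 for Acot2. Ucp3, a mitochondrial uncoupling protein, differed by 0.00 with all arrays and by -0.66 without normal 3. Ppara itself was dim, from 45.1 to 152.9 in normal and from 14.2 to 100.2 in diabetic hearts, and was not tested.

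Other genes that make, use or carry acyl-CoA were read from 10 lists, in which each gene is represented by its brightest tested probe set. Of the 120 genes tested over all lists, 9 rose and 2 fell. Of 30 PPAR-alpha responsive genes outside the family, Hadha, Decr1, Cat and Cyp4b1 rose and none fell by limma (18 higher and 0 lower at an unadjusted p under 0.05). The list's median log2 difference was 0.47, or 0.38 without normal 3, against -0.01 for all tested probe sets. The PPAR receptors and coactivators gave no call among 11 genes (limma; 2 higher and 0 lower at an unadjusted p under 0.05). Their median was 0.05, or -0.03 without normal 3. At an unadjusted p under 0.05 stood 19.9% of all tested probe sets.

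None of the 9 tested hydrolases of acyl-CoA or other acyl thioesters outside the family passed (limma; 0 higher and 1 lower at an unadjusted p under 0.05), and their median was 0.06. That 1 was Ppt2, a lysosomal thioesterase, at -0.71 ± 0.19 (limma adjusted p = 0.0817). Them4, a hotdog-fold relative of Acot13, was at -0.22 (adjusted p = 0.471). Acyl-CoA synthetases and fatty acid transport proteins act in the opposite direction to thioesterases, and none of the 11 tested passed (limma; 2 higher and 2 lower at an unadjusted p under 0.05; median -0.23). Acsl1, the main synthetase of heart muscle, differed by -0.13 ± 0.14 (95% interval -0.45 to 0.19). None of the 10 genes of the carnitine shuttle and malonyl-CoA control passed either (limma; 3 higher and 0 lower at an unadjusted p under 0.05). In that list 9 had positive differences, against 48% of all tested probe sets, and the median was 0.31, or 0.23 without normal 3.

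Among 12 genes of coenzyme A synthesis and breakdown, Nudt7 rose and none fell (limma; 1 lower at an unadjusted p under 0.05), with a list median of -0.10. Nudt7 is a peroxisomal hydrolase that cuts coenzyme A and acyl-CoA. It read 855.3, 687.0 and 694.3 in normal 1, 2 and 3 and 1741.9, 1897.6 and 1591.9 in diabetic 1, 2 and 3, a wide gap with little spread in either group. Its log2 difference was 1.21 ± 0.15 (limma adjusted p = 0.00646), and it stayed between 1.15 and 1.31 and past the threshold with any 1 array left out. Nudt19, another peroxisomal coenzyme A hydrolase, differed by -0.07 (adjusted p = 0.861). Among 10 acyl-CoA and fatty acid binding proteins, Fabp5 fell (log2 -0.89) and none rose (limma; 2 higher at an unadjusted p under 0.05), and Dbi, the acyl-CoA binding protein, was at 0.75 ± 0.18 (limma adjusted p = 0.0644).

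Of 16 genes of mitochondrial beta-oxidation, Hadha, Eci1 and Decr1 rose, and of 14 of peroxisomal oxidation, Cat rose, with none fallen in either list (limma; 1 and 2 lower at an unadjusted p under 0.05). The medians of those lists were 0.29 and 0.09, or 0.2 and 0.07 without normal 3. Of 21 genes of triglyceride synthesis and breakdown, Pnpla2, Gpihbp1 and Cidea rose and G0s2 fell (limma; 5 higher and 2 lower at an unadjusted p under 0.05). Of the 21, 9 had positive differences, near the 48% of all tested probe sets. The list median was -0.10, or -0.21 without normal 3. Cidea, a lipid droplet protein, read 4867.1, 4113.7 and 4252.4 in normal 1, 2 and 3 and 7479.9, 8470.6 and 7597.8 in diabetic 1, 2 and 3 (log2 0.83 ± 0.14, limma adjusted p = 0.0212). Of the fits that left out 1 array, Cidea passed in those without normal 1 and without diabetic 1 only. Of the 11 changed list genes, Nudt7 and Cyp4b1 kept their call with any 1 array left out. Without diabetic 2 only 2 list genes passed, without normal 3 or diabetic 3 only 4, and without normal 2 only 5. Without the dim filter none did by limma (33 at an unadjusted p under 0.05).

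**Figure D5:**
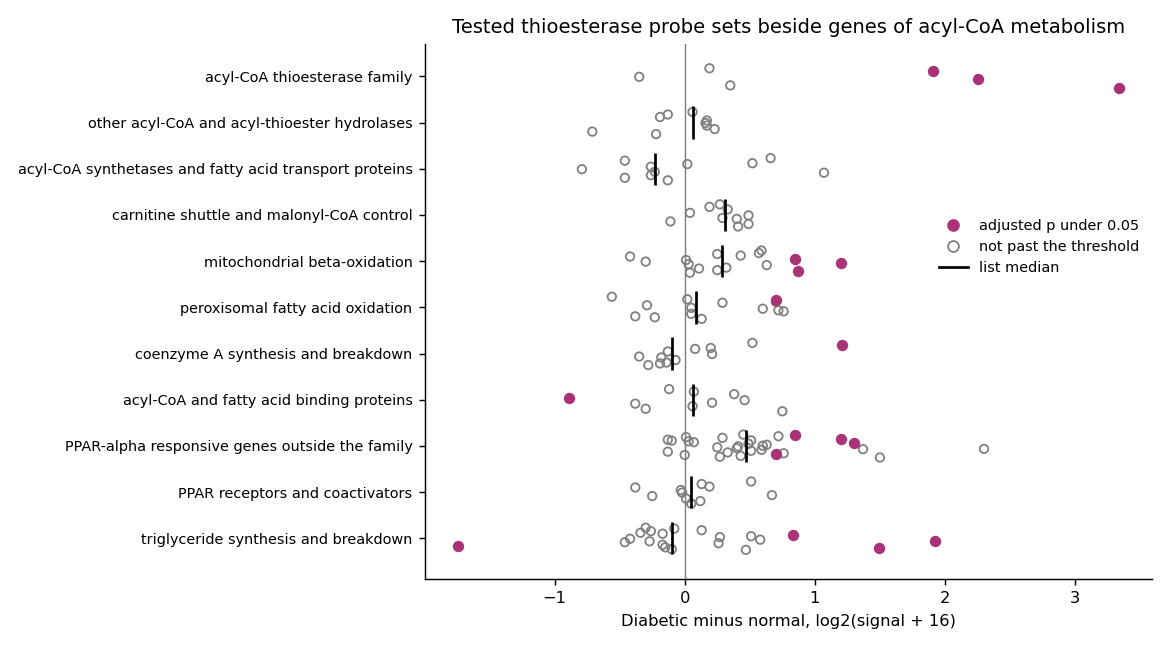
Difference between diabetic and normal hearts, in log2(signal + 16), for the 6 tested thioesterase probe sets and for the tested genes of each list (1 probe set per gene; some genes stand in several lists). Filled points passed an adjusted p of 0.05 and black bars are list medians; no tested list gene lies as far to the right as Acot1.

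Markers of the cells a ventricle holds were read beside these results. The 9 cardiomyocyte markers on the array summed to between 229462 and 288031 in normal and between 190476 and 247890 in diabetic arrays, with 1 of 9 fallen. That 1 was Myh6, the alpha myosin heavy chain (log2 -1.55, limma adjusted p = 0.0281), and without it the sums were 191443 to 235807 and 172873 to 225790. Of the 9, 1 had a positive difference, and the median was -0.16. Ryr2 (log2 -0.49) and Mybpc3 (-0.25) were lower in every diabetic array, as were 10% of all probe sets. Neither passed (limma adjusted p = 0.155 and 0.392). Fibroblast markers summed to between 36453 and 41124 in normal and between 24400 and 25095 in diabetic arrays, with 4 of 9 fallen. Those 4 were Col1a1, Col1a2, Col3a1 and Lum, and Col3a1 had means of 10058 in normal and 2579 in diabetic arrays. Pdgfra, Dcn, Fbln1, Tcf21 and Dpt did not pass (log2 -0.24, -0.01, 0.02, -0.29 and -0.36). Atrial markers summed to between 5907 and 7170 in normal and between 24161 and 33996 in diabetic arrays, where Nppa and Dkk3 rose out of 7. Most of that difference was Nppa, with means of 3671 in normal and 25244 in diabetic arrays. All 7 had positive log2 differences, but Myl7, Myl4, Sln and Kcnj3 (brightest probe set) overlapped between the groups. They were at 0.17, 0.43, 1.64 and 0.08 (limma adjusted p = 0.922, 0.664, 0.292 and 0.856). The mean signal of Myl7 was lower in diabetic arrays, at 309.1 against 358.1. Sums of adipocyte markers overlapped, from 6189 to 7657 and from 6805 to 8930. Plin1 (26.2 to 76.2 over all arrays) and Lep (6.7 to 55.5) lay below the filter level. The 3 tested markers, Cfd (log2 0.25), Fabp4 (0.06) and Lipe (0.58), had positive differences. None of them passed (limma adjusted p = 0.365, 0.899 and 0.209). Cfd and Lipe were higher in every diabetic array, as were 9.77% of all probe sets. Brown adipocyte markers were higher in sum, from 10995 to 13098 in normal and from 16851 to 17757 in diabetic arrays. Most of that signal was Cidea (means of 4411 and 7849) and Cpt1b (7734 and 9447). Ucp1 ran only from 6.0 to 44.5 and Dio2 from 4.9 to 40.1, below the filter level. Smooth muscle markers summed to 11542 to 12184 in normal and 13625 to 14901 in diabetic arrays, with Des at means of 8945 and 11569. Of the 5 tested, 2 had positive differences, Des (log2 0.37) and Smtn (0.19), and the median was -0.18. Myh11 (-0.18), Acta2 (-0.19) and Tagln (-0.71) had negative differences. Macrophage and leukocyte markers summed to 7859 to 8958 and 6708 to 7824, with Cd74 at 6305 and 4907. No gene of these last 2 lists passed by limma, and 5 of 6 tested macrophage and leukocyte markers had positive differences. Among all tested probe sets 48% had positive differences. Sums of endothelial, red blood cell and hepatocyte markers overlapped between groups. Of 6 tested endothelial markers, Tie1 fell (log2 -0.94, limma adjusted p = 0.0222) and none rose. Pecam1 differed by 0.68 (limma adjusted p = 0.147), and 3 of the 6 had positive differences. In whole tissue, fewer cells of a type and less RNA per cell cannot be told apart, and the part of these shifts in the thioesterase differences was not tested.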

How the data were processed

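The authors deposited 1 linear signal intensity per probe set and array, by software and scaling not given in the sources used here. Trimmed means were equal on all 6 arrays, so no further scaling was applied. The signal range was 0.2 to 72999.3. No detection calls were used, so signal and background were not told apart for dim probe sets. The number of arrays limits the precision. After 57 control probe sets were left out, names came from the platform annotation, updated by gene number.

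Probe sets whose mean log2(signal + 16) lay above the 40th percentile were tested two-sided with lmFit and eBayes of limma 3.58.1 (R 4.3.3), with no covariate. Single comparisons used exact permutation. The members and lists were chosen with earlier results of these data known. Named are all members, up to 4 changed genes per list, the nearest profiles, and Ppara, Pdk4, Angptl4 and Ucp3; Ppt2, Them4, Vnn1, Aldh3a2, Acsl1, Nudt19, Dbi, Pctp and marker genes were chosen after their values were seen. The code was tested on simulated data. Alternatives were pseudocounts of 1 and 64, other scalings, filters and priors, array weights, a replicate block and each array left out. Plots used matplotlib 3.10.9 under Python 3.11.15.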

Additional observations from a re-analysis of the deposited data

Results flagged for a closer look

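The Acot4 probe set lay outside the tests because its signal was dim, yet all diabetic signals exceeded all normal signals, with means of 60.5 ± 47.7 and 4.1 ± 2.7 (SD, n = 3 per group). Its exact two-sided permutation p was 0.1, the smallest that 3 against 3 arrays allow, and among all 15866 probe sets 9.77% were higher in every diabetic array. The difference of 1.66 on the log2 scale had an adjusted p of 0.307 in the unfiltered limma fit and 0.154 when that fit was given an intensity trend, an alternative added after seeing the data.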

How the results depend on the processing

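Over the alternatives run, the shared probe set passed the threshold in all 18, with log2 differences of 2.12 to 2.33. Acot1 differed by 2.60 to 3.77 (limma adjusted p 0.000571 to 0.066) over 17 alternatives; since it passes the dim filter only through its diabetic arrays, only the unfiltered fits are free of that choice, and they gave 0.066, short of the threshold, and 0.0037 with an intensity trend added after seeing the data. It was not tested with the filter at the 60th percentile. Acot2 passed in 14 of 18. Acot7, Acot8 and Acot13 passed in none, and with 1 array left out Acot8 ran from -0.01 (without diabetic 1) to 0.33. Without the dim filter, 18 probe sets of the array changed, 1 of them a thioesterase, and 0 list genes (33 at an unadjusted p under 0.05 by limma), and with an added intensity trend 371, 3 and 15. With the filter at the 60th percentile the array gave 437 and the lists 17, and with an intensity trend 527 and 19, against 274 and 11. Leaving out 1 array gave 100 to 202 changed probe sets, 2 or 3 thioesterase probe sets and 2 to 9 list genes; the array's count was 100 without normal 3, 100 without diabetic 2, 135 without diabetic 3 and 138 without normal 2. The replicate block gave 183, 3 and 7, and for the difference between Acot1 and Acot2 a value of 1.43 (exact sign-flip permutation p = 0.25, the smallest 3 pairs allow); numbers were not taken as pairs, since same-numbered arrays did not deviate together (r = 0.066, 0.014 and 0.016) and normal 2 correlated best with diabetic 3 (0.069). That difference was 1.03 to 1.99 with 1 array left out. Where counts moved, the cause was not tested. The number of arrays limits all of these values.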
